A study of Homo sapiens with 9 samples.

Results

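The protein-coding zinc finger genes of human chromosome 19 that carry a ZNF number as their name were followed across metformin dose in melanoma cells. Members were the genes on that chromosome whose deposited transcript types included protein coding, whose symbol was ZNF followed by a number and at most 1 letter, and whose mean level over the 9 libraries was at least 1 FPKM. FPKM, the unit of the deposited levels, is fragments scaled by transcript length and library size. By this rule 158 of 245 such genes on the chromosome were members, 64.5%, of 37118 genes listed and 12394 that reached the same level and were tested. The level was thus chosen on the mean over all doses, and the values that set it are given as a description.

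RNA sequencing was done on A375, an established human melanoma line, with the genotype given as WT. Cells received metformin, a biguanide drug for type 2 diabetes that acts on mitochondrial respiration, at 0, 20 or 40 mM, with 3 libraries per dose. The labels give no treatment time and do not say that the libraries came from separate cultures, so p-values reflect the spread between libraries that may be technical replicates. Totals ran from 65738242 to 75629413 counts, and the members held 0.275% to 0.302% of them. Replicate 3 at 40 mM stood apart from its group on the second principal component, at -22.6 against 17.7 and 15.2, and mitochondrial genes took 4.36% of its counts against 3.01% and 3.27%. The melanocyte lineage factor SOX10 averaged 104 FPKM at 0 mM and 5 of 9 lineage markers reached 1 FPKM, while the pigment genes MLANA, PMEL, TYR and DCT stayed under 1 FPKM. The summed level of these 9 markers was 133 to 161 FPKM at 0 mM, 134 to 144 at 20 mM and 104 to 147 at 40 mM. Of the markers of other cells, 2 of 3 keratinocyte genes (KRT10 and KRT14) reached 1 FPKM, with a summed level of 23.0 to 26.6 FPKM at 0 mM and 30.7 to 32.5 at 40 mM, and the leukocyte genes PTPRC and CD3E were at or near 0. The 3 fibroblast markers summed to 1.23 to 1.49 FPKM at 0 mM and 2.13 to 2.44 at 40 mM, nearly all of it PDGFRB, and the 2 endothelial markers to at most 0.711. The part of these markers in the changes of the ZNF genes was not tested.

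C2H2 zinc finger proteins bind DNA through repeated small domains held by zinc, each of which reads a few bases. Many of them also carry a KRAB domain, which recruits the corepressor TRIM28, and TRIM28 in turn brings the histone methyltransferase SETDB1, heterochromatin protein 1 and the NuRD complex to the bound site. The family grew by tandem duplication, which left most of its genes in clusters on chromosome 19, and many members bind and silence transposable elements. TRIM28 also binds the 3′ ends of many of these genes themselves.

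Most members were expressed at low levels. Their median was 2.37 FPKM (quartiles 1.64 and 3.31) against 6.08 FPKM over all tested genes. The level was 1 to 2 FPKM in 64 members, 2 to 5 in 75, 5 to 10 in 17 and above 10 in 2. The 2 highest were ZNF146, a protein made almost wholly of zinc fingers, and ZNF428. ZNF146 measured 32.6, 33.2 and 33.4 FPKM without drug, 32.4, 32.9 and 32.9 at 20 mM and 31.5, 31.0 and 30.3 at 40 mM. ZNF428 averaged 13.1 ± 0.586 FPKM at 0 mM (SD, n = 3) and 12.7 ± 1.26 at 40 mM, and its groups overlapped. Just inside the limit lay ZNF57 at 1.011 FPKM, ZNF71 at 1.026 and ZNF8 at 1.034. Just outside lay ZNF230 at 0.990 FPKM, ZNF611 at 0.987 and ZNF433 at 0.976. Of the 87 genes under the limit, 48 reached 0.5 FPKM and 12 stayed under 0.1 FPKM.

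The members did not move as a block. Changes below are log2 fold changes ± SE fitted to the counts with edgeR's quasi-likelihood test, and a gene rose or fell where the Benjamini-Hochberg adjusted p over all 12394 tested genes was under 0.05. At 20 against 0 mM, 18 members rose and 15 fell, 20.9% of the 158, while 31.6% of all tested genes were called (16.3% higher and 15.2% lower). At 40 against 0 mM, 39 members rose and 29 fell, 43.0%, beside 56.2% of all tested genes (28.8% higher, 27.4% lower). Between the doses, at 40 against 20 mM, 15 members rose and 10 fell, 15.8% beside 29.3%. The share of members called was thus below the background in each comparison. The comparisons at 20 and 40 mM share their 0 mM libraries. Counted by libraries that do not overlap, 27 members were higher and 33 lower at 20 mM, beside backgrounds of 25.6% and 24.9% of tested genes. At 40 mM 46 were higher and 32 lower, beside 34.4% and 26.8%, and between the doses 37 were higher and 15 lower, beside 25.9% and 18.0%. By mean level, 74 members were highest at 40 mM, 60 at 0 mM and 24 at 20 mM.

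The median change of the 158 members was -0.02 at 20 mM and 0.01 at 40 mM against 0 mM, and 0.03 between the doses, beside 0.00, -0.00 and -0.00 over all tested genes. The pooled SD of the members' median between replicate libraries was 0.030, as large as these shifts. Changes were also small gene by gene. At 40 against 0 mM, 20 members (12.7%) changed by 0.5 or more in either direction, against 20.3% of all tested genes, and 1 changed by 1 or more. At 20 mM the figures were 5 members (3.16%) and 7.58%. The ZNF genes of other chromosomes, 173 in number, gave medians of -0.02 and 0.01 at the 2 doses, with 46 that rose and 44 that fell at 40 mM. Other protein-coding genes of chromosome 19 (597) had a median of -0.06 at both doses, with 120 that rose and 189 that fell at 40 mM. Of 5272 other tested genes of 1 to 5 FPKM, a range that holds most members, 26.2% and 50.5% were called at 20 and 40 mM.

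The balance of rises and falls depended on the setting. With libraries scaled by their totals alone, 47 members rose and 19 fell at 40 against 0 mM and 21 rose and 6 fell at 40 against 20 mM, with a median over all tested genes of 0.05 and 0.04. Without replicate 3 of 40 mM, 42 rose and 29 fell at 40 against 0 mM and 18 rose and 14 fell between the doses. Without replicate 2 of 0 mM, 25 rose and 25 fell at 40 against 0 mM, where 48.8% of all tested genes were called, beside 56.2% with all 9 libraries. At 20 mM, leaving out replicate 1 of 0 mM gave 13 rises and 8 falls; leaving out replicate 2 or 3 of 20 mM gave 12 or 15 rises and 8 falls each, and its replicate 1 gave 14 and 9. Between the doses, 5 rose and 7 fell without replicate 3 of 20 mM or replicate 1 of 40 mM. Leaving out replicate 2 of 20 mM gave 5 and 3 there, or 8 and 5 for its replicate 1. The share of all tested genes called between the doses fell as well, from 29.3% to 20.0%, 22.8%, 19.4% and 23.3% in that order. Replicate 2 of 40 mM, left out, gave 9 and 6 there. With no filter on low levels 3 rose and 6 fell between the doses, and 8 and 5 in a fit of only the 6 libraries compared. With no filter, 12.7% of members were called at 20 mM and 31.0% at 40 mM against 0 mM. Over all 37118 genes, most of them under 1 FPKM, the shares were 8.41% and 20.5%, below those of the members. Between the doses they were 5.70% of members and 7.51% of all.

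Among the rises, ZNF841, a KRAB protein with 20 fingers, changed most at 40 mM. ZNF841 (chr19:52064466-52095765 in the deposited coordinates, minus strand) measured 3.00, 2.66 and 2.56 FPKM without drug, 3.64, 3.37 and 3.30 at 20 mM and 5.91, 4.76 and 5.03 at 40 mM. The 3 groups did not overlap. The change was 0.90 ± 0.10 at 40 against 0 mM (adjusted p = 2.4e-05) and 0.58 ± 0.10 at 40 against 20 mM (adjusted p = 0.0019). Its smaller change at 20 mM, 0.32 ± 0.10, had an adjusted p of 0.03, which was lost without replicate 2 or 3 of 0 mM or any replicate of 20 mM, where it reached 0.1 (change 0.27 to 0.40). ZNF331, an imprinted KRAB gene that is often silenced in tumours, lies further along the chromosome at chr19:53519527-53580269. It rose from 3.10, 3.19 and 2.94 FPKM without drug to 4.34, 4.60 and 4.08 at 20 mM and 5.33, 5.07 and 4.73 at 40 mM. Every treated library was above every untreated one, and the changes were 0.49 ± 0.06 at 20 mM (adjusted p = 0.00023) and 0.68 ± 0.06 at 40 mM (adjusted p = 6.4e-06).

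ZNF227 rose between each pair of doses. It measured 5.47, 5.39 and 5.23 FPKM without drug, 6.41, 6.48 and 6.45 at 20 mM and 7.60, 7.96 and 7.40 at 40 mM, with no overlap between any 2 doses. It rose by 0.26 ± 0.05, then 0.48 ± 0.05 against 0 mM (adjusted p = 0.0022 and 1.2e-05) and by 0.22 ± 0.05 between the doses (adjusted p = 0.0066). ZNF227 shares 21.58% of its 50-base windows with other genes, chiefly ZNF235, so reads may have been divided between them. ZNF208, which has 36 fingers and the highest finger count of the members, went from 2.51 ± 0.325 to 3.30 ± 0.178 and 4.03 ± 0.229 FPKM and changed by 0.39 ± 0.08 and 0.65 ± 0.08 at the 2 doses (adjusted p = 0.0055 and 8.2e-05). It shares 15.09% of its windows, chiefly with ZNF676. ZNF586 went from 2.54 ± 0.163 to 3.36 ± 0.243 and 3.92 ± 0.166 FPKM, a change of 0.59 ± 0.08 at 40 mM (adjusted p = 7.3e-05). Further rises at 40 mM were ZNF728 by 0.66 ± 0.24, ZNF888 by 0.61 ± 0.15 and ZNF708 by 0.60 ± 0.13. ZNF728 was near the expression limit, at 0.898 ± 0.231 FPKM without drug, and its adjusted p of 0.037 was lost without replicate 2 or 3 of 0 mM or replicate 1 or 2 of 40 mM, where it reached 0.14 (change 0.47 to 0.88 over all libraries left out).

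The largest fall was that of ZNF253, a KRAB gene with 11 fingers at chr19:19865882-19894674. It measured 3.31, 3.68 and 3.60 FPKM without drug, 2.64, 2.61 and 2.04 at 20 mM and 1.58, 1.67 and 1.96 at 40 mM. No library of 1 dose overlapped those of another. The change was -0.54 ± 0.13 at 20 mM and -1.06 ± 0.13 at 40 mM against 0 mM (adjusted p = 0.0081 and 4.6e-05), a level 2.08-fold lower. Between the doses it fell again, by 0.51 ± 0.13 (adjusted p = 0.012). In bulk RNA, a lower level in every cell and a loss in some of the cells cannot be told apart.

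ZNF627 and ZNF681, both KRAB genes, were called at the higher dose and not at the lower. ZNF627 measured 2.40, 1.80 and 1.94 FPKM without drug, 1.75, 1.95 and 1.60 at 20 mM and 1.28, 1.31 and 1.06 at 40 mM. Its changes were -0.22 ± 0.15 at 20 mM (adjusted p = 0.29) and -0.78 ± 0.15 at 40 mM (adjusted p = 0.00098), with -0.57 ± 0.15 between the doses (adjusted p = 0.015, or 0.063 without replicate 2 of 20 mM, where the change was -0.49). ZNF681 measured 1.49, 1.52 and 1.50 FPKM without drug, 1.53, 1.39 and 1.28 at 20 mM and 1.11, 0.847 and 1.02 at 40 mM, so that the 20 mM libraries overlapped the untreated ones and the 40 mM libraries did not. It changed by -0.10 ± 0.12 at 20 mM (adjusted p = 0.54), -0.63 ± 0.12 at 40 mM (adjusted p = 0.00099) and -0.53 ± 0.12 between the doses (adjusted p = 0.0078). ZNF43 fell at both doses, by 0.36 ± 0.09 and 0.58 ± 0.09 (adjusted p = 0.015 and 0.00036), the first of which was lost without replicate 3 of 0 mM or of 20 mM (change -0.41 to -0.31, adjusted p up to 0.057). ZNF524, at 1.99 ± 0.0392 FPKM without drug and 1.24 ± 0.314 at 40 mM, and ZNF784, at 2.44 ± 0.205 and 1.66 ± 0.198, carry no KRAB domain and fell by 0.71 ± 0.19 and 0.59 ± 0.14.

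**Figure D1:**
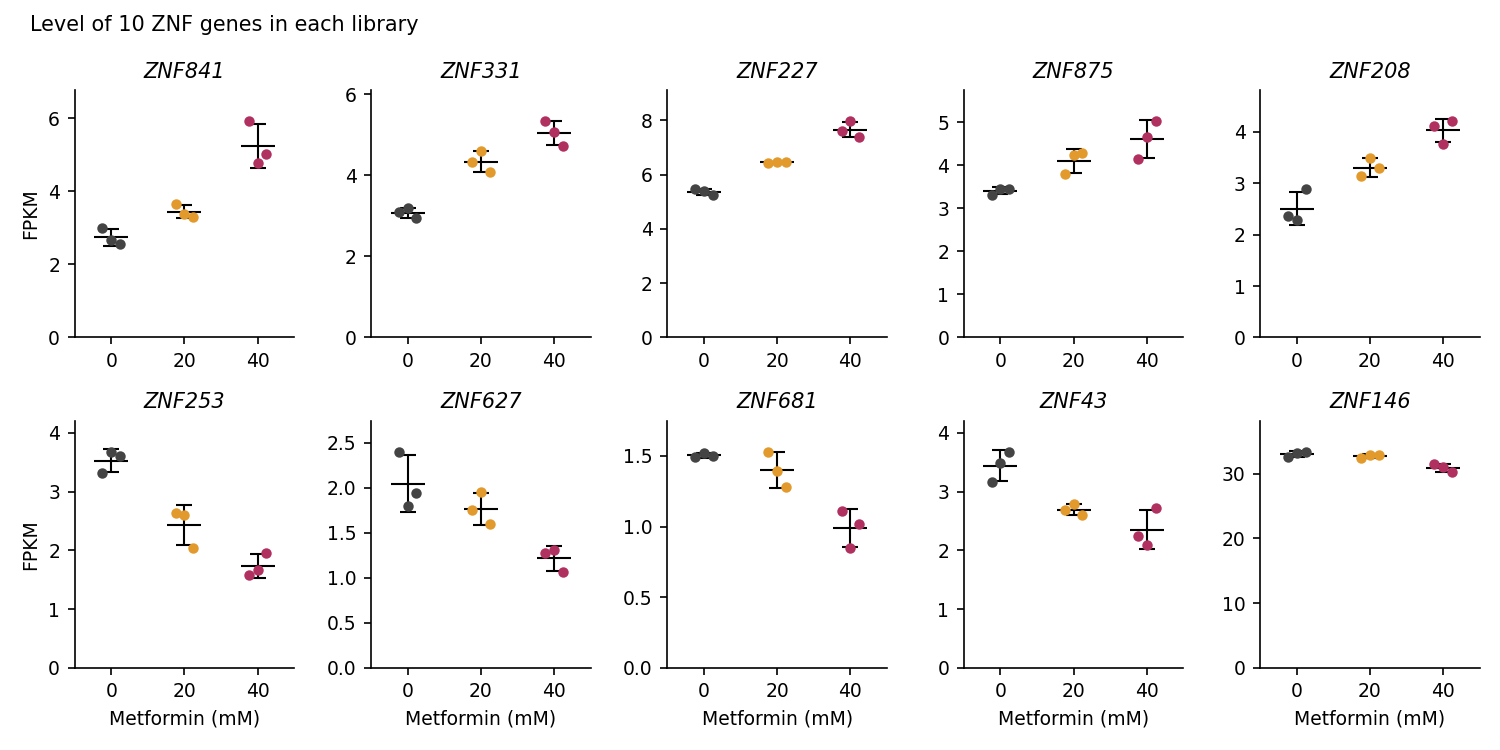
Level in FPKM (y axis, from 0) of 10 members in each library at 0, 20 and 40 mM metformin (x axis); points are libraries, the wide bar is the mean and the whiskers are the SD (n = 3). The upper row shows rises such as ZNF841, from a mean of 2.74 to 5.24 FPKM, and the lower row shows falls such as ZNF253, from 3.53 to 1.73 FPKM, with the highest member, ZNF146, last.

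RefSeq promoters (GRCh38.p14, 250 bases before to 50 after the start) were found for 140 members and were searched on both strands for short motifs. The ETS site CCGGAAGT, bound by a large family of activators, was in 24.3% of member promoters, against 4.14% of all 35116 promoters, 9.86% of those of other tested protein-coding genes and 17.6% of those of tested ZNF genes elsewhere. CCAAT, the box bound by NF-Y, was in 57.1% against 34.6% of all promoters and 37.3% of those of other tested protein-coding genes. In tested ZNF genes elsewhere its share was 42.6%. Among the members it was in 62.6% of those with a KRAB domain against 32% of those without. The GC box GGGCGG, bound by Sp1, was in 62.1% against 45% of all promoters and 71.7% of those of other tested protein-coding genes. The stress element TGATGNAA of CHOP and ATF4 was in 1 of the 140 member promoters (0.714%), against 1.6% of those of other tested protein-coding genes, 1.35% of those of tested ZNF genes elsewhere and 3.62% of all. The ETS site was in 21.2% of the 33 promoters of members that rose at 40 mM and in 20% of the 25 of those that fell.

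Promoters of the largest rise and fall with an entry, ZNF841 and ZNF627, and of the largest rise and fall that hold an ETS site, ZNF586 and ZNF324B, are shown to let these letters be read in place; ZNF253 has no entry. Each is the 250 bases before the RefSeq start, 5′ to 3′ in the direction of the gene, and the capitals mark GC box, CCAAT box and ETS site matches on either strand. The windows are chr19:52095766-52096015, minus strand, then chr19:11597233-11597482, plus strand, then chr19:57769426-57769675, plus strand, and chr19:58451372-58451621, plus strand. The ZNF627 window lies inside the deposited gene, chr19:11559374-11619124, so its RefSeq start is not the start of the deposited gene. Which start the counted ZNF627 reads came from was not tested.
ZNF841: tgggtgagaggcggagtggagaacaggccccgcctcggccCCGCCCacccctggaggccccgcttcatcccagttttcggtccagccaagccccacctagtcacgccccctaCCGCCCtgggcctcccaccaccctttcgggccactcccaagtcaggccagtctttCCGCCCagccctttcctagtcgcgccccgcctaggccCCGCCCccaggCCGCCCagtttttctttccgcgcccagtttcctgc
ZNF627: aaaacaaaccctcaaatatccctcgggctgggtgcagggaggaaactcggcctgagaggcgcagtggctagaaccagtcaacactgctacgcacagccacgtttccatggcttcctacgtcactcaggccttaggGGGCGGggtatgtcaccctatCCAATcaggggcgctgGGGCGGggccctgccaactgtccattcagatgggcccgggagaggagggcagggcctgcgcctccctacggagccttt
ZNF586: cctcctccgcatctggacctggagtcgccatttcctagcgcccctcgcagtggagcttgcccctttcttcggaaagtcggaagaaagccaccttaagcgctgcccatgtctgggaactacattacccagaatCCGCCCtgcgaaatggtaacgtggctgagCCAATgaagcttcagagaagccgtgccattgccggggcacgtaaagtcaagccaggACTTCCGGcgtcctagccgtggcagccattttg
ZNF324B: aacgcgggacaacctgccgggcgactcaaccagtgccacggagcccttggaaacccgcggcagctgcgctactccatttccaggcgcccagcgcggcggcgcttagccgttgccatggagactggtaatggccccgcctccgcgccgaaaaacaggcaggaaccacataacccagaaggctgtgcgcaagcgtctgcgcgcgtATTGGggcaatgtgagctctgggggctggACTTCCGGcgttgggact
ZNF841 holds 5 GC boxes on the reverse strand, read here as CCGCCC, and no CCAAT. ZNF627 has 2 GC boxes around 1 CCAAT. ZNF586 has 1 GC box and 1 CCAAT, and ZNF324B 1 CCAAT, read on this strand as ATTGG. In ZNF586 and ZNF324B the ETS site reads ACTTCCGG on this strand, beginning 33 and 18 bases before the start. ZNF324B, picked for its promoter after its values were seen, fell from 2.28 ± 0.217 FPKM at 0 mM to 1.58 ± 0.0501 at 40 mM, by 0.56 ± 0.10 (adjusted p = 0.00079), and shares 22.04% of its windows with ZNF324, while ZNF586 with the same letters rose.

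Some members had their larger change at 20 mM. ZNF333 rose by 0.58 ± 0.08 at 20 mM and 0.43 ± 0.08 at 40 mM (adjusted p = 0.0003 and 0.0006), at 0.807 ± 0.0350, 1.21 ± 0.0266 and 1.12 ± 0.0415 FPKM. ZNF726 rose by 0.66 ± 0.11 at 20 mM (adjusted p = 0.0012), the largest rise at that dose, with libraries at 1.19, 1.36 and 1.34 FPKM without drug and 1.98, 2.02 and 2.14 at 20 mM. At 40 mM its libraries lay between, at 1.45, 1.73 and 1.87 FPKM, with an adjusted p of 0.019 that was lost without replicate 1 of 0 mM or replicate 2 or 3 of 40 mM (change 0.26 to 0.44, adjusted p up to 0.068). ZNF480 fell at 20 mM by 0.30 ± 0.06 (adjusted p = 0.0029), from 5.75, 5.88 and 5.70 to 4.98, 4.62 and 4.46 FPKM. At 40 mM it was back at 5.75, 5.41 and 5.72 FPKM, within 0.07 ± 0.06 of the untreated level on the log2 scale (adjusted p = 0.32, a change of -0.07), and the change between the doses was 0.23 ± 0.06 (adjusted p = 0.013, or 0.057 without replicate 3 of 20 mM, where it was 0.20). ZNF823 fell by 0.64 ± 0.19 at 20 mM, the largest fall at that dose, but its adjusted p of 0.024 was lost without replicate 1 or 3 of 0 mM or replicate 3 of 20 mM (change -0.77 to -0.50, adjusted p up to 0.088). ZNF146, the most highly expressed member, was level at 20 mM (-0.02 ± 0.03, adjusted p = 0.75) and fell by 0.13 ± 0.03 at 40 mM (adjusted p = 0.008), a change that was not called with libraries scaled by their totals (-0.08).

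Further members changed by similar amounts at the lower dose. ZNF90 went from 2.17 ± 0.113 FPKM to 3.06 ± 0.222 and 3.23 ± 0.295, a rise of 0.49 ± 0.09 at 20 mM and 0.53 ± 0.09 at 40 mM (adjusted p = 0.0021 and 0.00041). ZNF682 went from 1.43 ± 0.154 FPKM to 2.03 ± 0.0789 at 20 mM and 1.90 ± 0.219 at 40 mM, a rise of 0.50 ± 0.12 at 20 mM (adjusted p = 0.0078). ZNF773 rose by 0.49 ± 0.12 at 20 mM (adjusted p = 0.01), and 19.8% of its windows are shared, chiefly with ZNF419. All 3 are KRAB genes, and their 20 mM libraries lay above those of 0 mM without overlap. ZNF416 fell by 0.45 ± 0.15 at 20 mM (adjusted p = 0.036). Its call was lost without replicate 2 of 0 mM or any of 20 mM (-0.53 to -0.29, adjusted p up to 0.16). ZNF527 fell by 0.42 ± 0.13 at 20 mM (adjusted p = 0.032). Its call was lost without any replicate of 0 mM or replicate 1 or 2 of 20 mM (-0.55 to -0.32, adjusted p up to 0.11). ZNF614 fell from 3.31 ± 0.121 to 2.52 ± 0.118 FPKM at 20 mM, by 0.40 ± 0.09 (adjusted p = 0.0069), and ZNF180 from 3.48 ± 0.0774 to 2.71 ± 0.189 FPKM, by 0.36 ± 0.09 (adjusted p = 0.013, or 0.056 without replicate 1 of 20 mM, where the change was -0.30). Between the doses ZNF616, next to ZNF841, rose by 0.38 ± 0.10 (adjusted p = 0.019), which was lost without replicate 3 of 20 mM or replicate 1 of 40 mM (change 0.30 to 0.45, adjusted p up to 0.074). ZNF570 rose by 0.39 ± 0.12 between the doses (adjusted p = 0.03). Its call was lost without replicate 2 or 3 of 20 mM or replicate 1 or 2 of 40 mM (0.30 to 0.46, adjusted p up to 0.11). Of the other highly expressed members, ZNF787 (9.34 ± 0.430 and 10.2 ± 0.780 FPKM at 0 and 40 mM) and ZNF581 (9.49 ± 1.01 and 9.37 ± 1.15 FPKM) overlapped between 0 and 40 mM. ZNF317 fell by 0.21 ± 0.05 at 20 mM (adjusted p = 0.01, or 0.052 without replicate 2 of 20 mM), from 9.67 ± 0.249 to 8.36 ± 0.473 FPKM.

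The members listed for a known role are given at 40 against 0 mM. ZNF91, which represses SVA elements, measured 2.23, 2.28 and 2.40 FPKM at 0 mM and 2.57, 2.77 and 2.97 at 40 mM, a rise of 0.23 ± 0.07 (adjusted p = 0.021), which was lost without replicate 1 or 2 of 0 mM or replicate 3 of 40 mM (change 0.18 to 0.28, adjusted p up to 0.064). ZNF93, which represses LINE-1 elements, went from 1.33, 1.37 and 1.65 to 1.92, 1.87 and 2.03 FPKM, a rise of 0.39 ± 0.11 (adjusted p = 0.011). ZNF274, which binds the 3′ ends of zinc finger genes and recruits SETDB1, stood at 3.94 ± 0.101 and 4.39 ± 0.166 FPKM, without overlap between libraries. Its change of 0.12 ± 0.05 was not called (adjusted p = 0.066). It was called without replicate 3 of 40 mM (adjusted p = 0.035), with library totals (0.17) and in both limma fits (0.12 and 0.15). ZNF224, known as a repressor of the aldolase A gene, rose by 0.42 ± 0.08 (adjusted p = 0.0014), and 48.26% of its windows are shared with other genes. ZNF420, an inhibitor of p53-mediated apoptosis, was not called (0.25 ± 0.15, adjusted p = 0.19), nor was ZNF671, a gene often methylated in tumours (0.24 ± 0.15, adjusted p = 0.21). ZNF649, a repressor of mitogen-activated transcription, rose by 0.30 ± 0.10 at 40 mM (adjusted p = 0.026), which was lost without replicate 2 or 3 of 0 mM or replicate 1 of 40 mM (change 0.24 to 0.37, adjusted p up to 0.09). ZNF507 fell at both doses, from 4.29, 4.16 and 4.49 FPKM to 3.93, 3.76 and 3.63 and then 3.44, 3.51 and 3.43, by 0.19 ± 0.05 and 0.35 ± 0.05 (adjusted p = 0.0097 and 9.7e-05). ZNF444, a factor without KRAB first described in endothelial cells, fell by 0.22 ± 0.08 at 40 mM (adjusted p = 0.034). That call was lost without replicate 1 or 3 of 0 mM or replicate 1 or 2 of 40 mM (change -0.26 to -0.18, adjusted p up to 0.12). It was also lost with no filter (-0.23), library totals (-0.17) and both limma fits (-0.14 and -0.18). At 20 mM ZNF444 fell by 0.27 ± 0.08 (adjusted p = 0.022), which was lost without replicate 1 of 0 mM or replicate 1 or 2 of 20 mM (change -0.35 to -0.23, adjusted p up to 0.09). At 40 mM ZNF45, ZNF44, ZNF85, ZNF431 and ZNF580 were not called by edgeR without a block, with changes from -0.34 (ZNF580, adjusted p = 0.082) to 0.04 (ZNF431, adjusted p = 0.61). ZNF580 was called with the replicate block (-0.36) and by DESeq2 (-0.35), at -0.59 without replicate 3 of 40 mM (adjusted p = 0.00041) and at -0.44 without replicate 1 of 0 mM, and ZNF45 (-0.13) without replicate 2 of 20 mM (adjusted p = 0.039). ZNF580 and ZNF581 overlap on the same strand, so reads may have been divided between them. Of 18 genes listed for a known role, 17 were members, and ZNF382 was not.

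Position along the chromosome was described by runs of ZNF genes at any level, split where more than 1 Mb lay between neighbours. Runs with at least 5 members gave 7 clusters, called A to G from the short arm's end, which held 148 of the 158 members. Cluster A lies at 7.1 to 9.8 Mb (12 members of 15 genes), B at 11.5 to 12.6 Mb (12 of 25), C at 19.7 to 24.1 Mb (28 of 37) and D at 36.2 to 37.8 Mb (15 of 27). Cluster E lies at 43.5 to 45.1 Mb (17 of 24), F at 51.6 to 53.6 Mb (21 of 39) and G at 55.5 to 58.5 Mb (43 of 58). By the main test each cluster held both called rises and called falls at 40 mM. The only fall in F, ZNF614 (adjusted p = 0.023), was not called in every setting. It was lost with libraries scaled by their totals and at an adjusted p under 0.01, among others. The shares called in each cluster stand beside 28.8% higher and 27.4% lower over all tested genes.

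Clusters D and F had the highest medians at 40 against 0 mM. In D, which starts with ZNF146 and ends with ZNF607, the median was 0.25, with 7 members that rose (46.7%) and 3 that fell (20.0%), or 7 and 1 with library totals and 7 and 2 without replicate 3 of 40 mM. Its risers lay between 0.25 and 0.40 (ZNF875, 0.40 ± 0.07, adjusted p = 0.00092, was highest) and its fallers were ZNF527 by 0.44 ± 0.13, ZNF566 and ZNF146. Relative to the 0 mM mean of each gene, the cluster's median was 0.236, 0.214 and 0.124 in the 40 mM libraries and -0.031 to 0.063 in the other 6, so the 40 mM libraries did not overlap the rest. In F, from ZNF175 to ZNF331, the median was 0.15, with 8 members that rose (38.1%), among them ZNF841, ZNF331, ZNF888 and ZNF616, and 1 that fell (4.76%), ZNF614. The call of ZNF614 (-0.27) was lost when replicate 1 of 0 mM (-0.23) or replicate 3 of 40 mM (-0.18) was left out, and with library totals (-0.22), which gave 9 rises and 0 falls; DESeq2 and limma each called 1 fall. The cluster's libraries overlapped, at 0.214, 0.152 and 0.037 for 40 mM and -0.048 to 0.076 for 0 mM. Between the doses F had a median of 0.15, with 6 members that rose (28.6%), beside 14.3% of all tested genes higher. Without replicate 3 of 40 mM the medians at 40 against 0 mM were 0.28 in D and 0.19 in F. A split at gaps of 2 Mb puts F and G in a single run of 65 members, with a median of 0.00 at 40 against 0 mM.

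Cluster C, from ZNF101 to ZNF254, had its highest median at the lower dose. At 20 mM it was 0.12, with 6 members that rose (21.4%) and 2 that fell (7.14%), beside 16.3% and 15.2% of all tested genes. The cluster's library medians at 20 mM were 0.144, 0.120 and 0.053, above the 0 mM libraries at -0.026 to 0.027. At 40 mM the median was 0.02, with 9 members that rose (32.1%) and 6 that fell (21.4%), and the library medians of 0.002, 0.002 and 0.054 overlapped those of 0 mM; without replicate 3 of 40 mM the median was -0.03. The cluster then held both the largest fall of all members, ZNF253, and 3 of the 6 largest rises whose libraries did not overlap, ZNF728, ZNF208 and ZNF708. Between 20 and 40 mM, 1 of its members rose (3.57%) and 5 fell (17.9%), with a median of -0.09. Over all tested genes 14.3% were higher and 15.1% lower there, so the share of falls was near the background.

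The other clusters had medians between -0.09 and 0.04 against 0 mM. Cluster G, the largest, had medians of -0.07 at 20 mM and -0.03 at 40 mM, with 6 members that rose (14.0%), led by ZNF586, and 10 that fell (23.3%), led by ZNF524 and ZNF784. With libraries scaled by their totals, 9 rose and 8 fell. Split at gaps of 0.5 Mb, the 11 members at 55.5 to 56.7 Mb had a median of -0.22 at both doses. At 40 mM 0 of these 11 rose and 4 fell. Most of the 11 carry no KRAB domain, so they also belong to the set without KRAB that is described below. The 32 members at 57.2 to 58.5 Mb had a median of 0.01 at both doses, with 6 that rose and 6 that fell at 40 mM. None of the 43 members of G was called between the doses by edgeR, beside 29.3% of all tested genes and 15.8% of the 158 members. At an unadjusted p under 0.05 in the same test, 4 of the 43 were higher and 2 lower. DESeq2 called 2 of them higher and 1 lower, and limma on log2(FPKM + 1) called 4 higher and 0 lower. Cluster A had medians of -0.09 and -0.03 at the 2 doses, with 2 that rose (16.7%) and 3 that fell (25.0%) at 40 mM, or 4 and 1 with library totals, 3 and 2 with limma and 4 and 4 without replicate 3 of 40 mM. Among the falls was ZNF558 by 0.55 ± 0.08 (adjusted p = 0.00024). Cluster B had -0.07 and -0.04, with 1 that rose (8.33%) and 2 that fell (16.7%), ZNF627 and ZNF823, or 2 and 1 with library totals. The call of ZNF823 at 40 mM (-0.47 ± 0.18, adjusted p = 0.048) was lost without replicate 1 or 3 of 0 mM, 1 or 2 of 20 mM or 2 or 3 of 40 mM (change -0.60 to -0.34, adjusted p up to 0.18). It was also lost with the replicate block (-0.48), library totals (-0.42), both limma fits (-0.27 and -0.41), no filter (-0.49) and only the 6 libraries compared (-0.47). Cluster E had -0.03 and 0.04, with 4 that rose (23.5%), led by ZNF227, and 2 that fell (11.8%), led by ZNF180 (0.49 ± 0.09 lower, a change of -0.49, adjusted p = 0.001). The 10 members outside the clusters had medians of -0.03 and 0.05. Neighbouring members of the same run, with small runs outside the clusters included, were weakly alike in their change. The Spearman coefficient was 0.18 at 20 mM and 0.17 at 40 mM over 144 pairs. Over 588 neighbouring pairs of other tested protein-coding genes of the chromosome it was 0.00 and -0.03. These are descriptions, since neighbours can share sequence and reads.

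**Figure D2:**
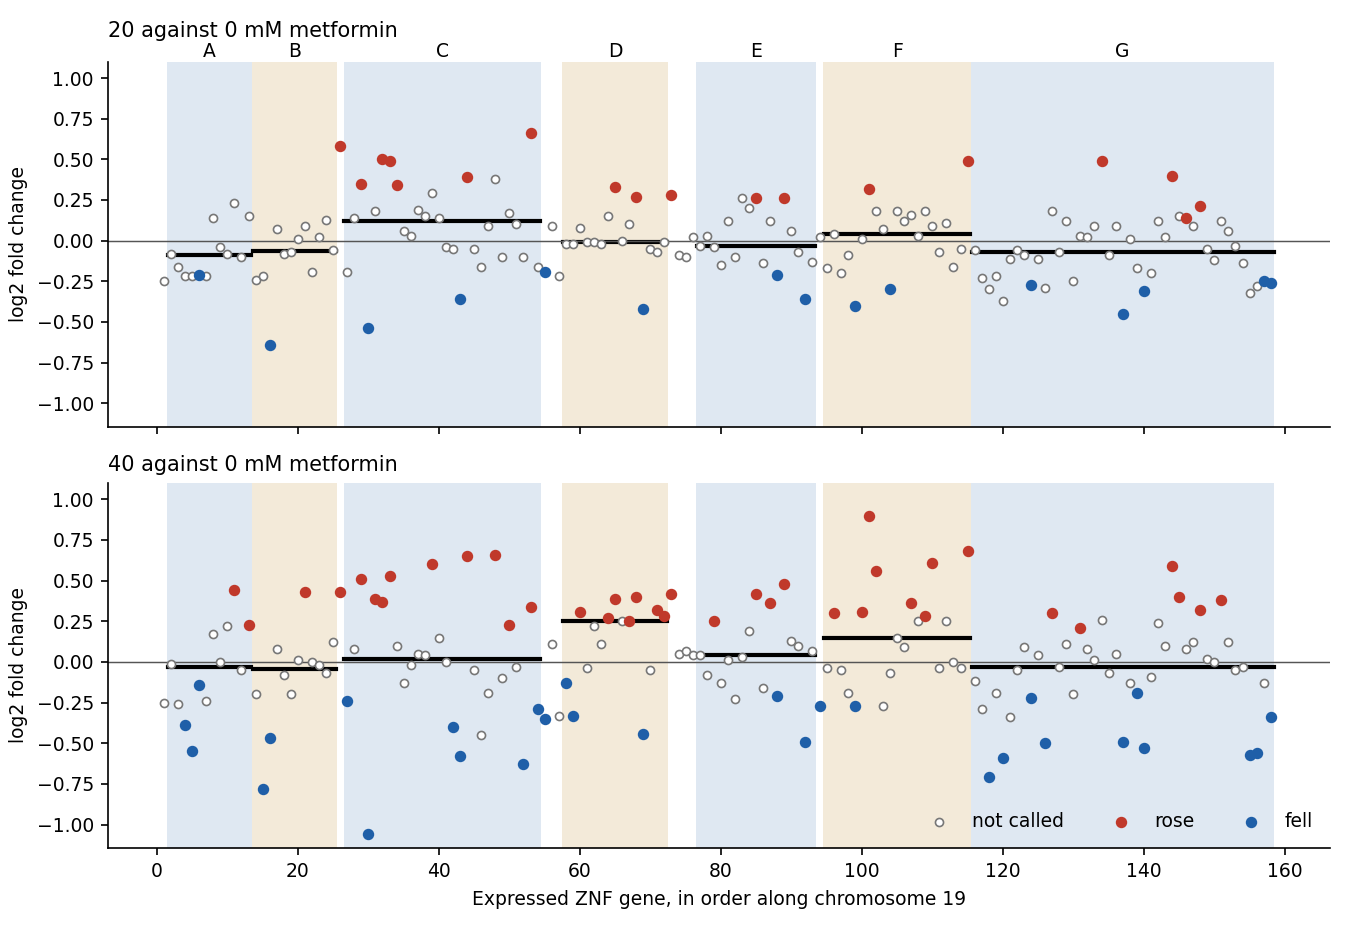
Log2 fold change (y axis) of the 158 members in their order along chromosome 19 (x axis) at 20 (top) and 40 mM (bottom) against 0 mM; filled points passed the test, shaded bands are clusters A to G and black bars their medians. Rises and falls are mixed within clusters; the medians of D and F at 40 mM are 0.25 and 0.15.

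**Figure D3:**
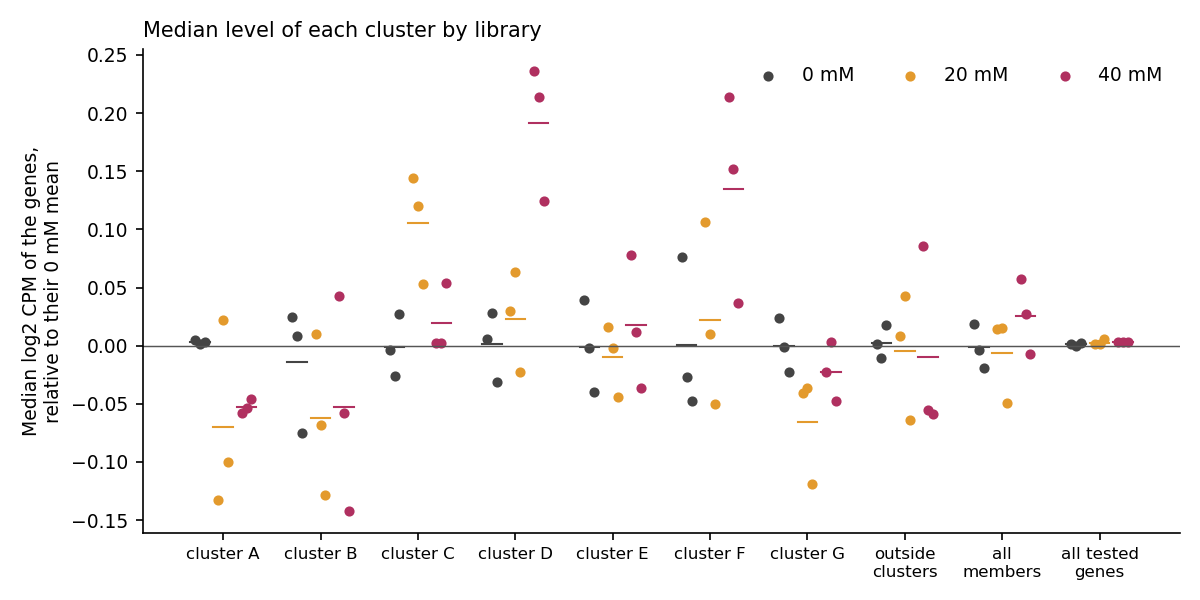
Median log2 CPM of each cluster's members in each library, relative to each gene's mean at 0 mM (y axis), with 3 points per dose and a bar at their mean. The 40 mM libraries of cluster D (0.124 to 0.236) lie above the rest, while all tested genes stay near 0.

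The KRAB domain was found in 132 members and not in 26. At 40 against 0 mM, 36 KRAB members rose (27.3%) and 22 fell (16.7%), with a median of 0.02. Of the members without the domain 3 rose (11.5%) and 7 fell (26.9%), with a median of -0.13. Over all tested genes 28.8% were higher and 27.4% lower, so the KRAB rises and the falls without KRAB were near the background. At 20 mM 18 KRAB members rose (13.6%) and 13 fell (9.85%), with a median of 0.00. The background there was 16.3% of all tested genes higher and 15.2% lower, above both shares. Of the 26 members without KRAB 2 fell (7.69%), ZNF444 and ZNF507, also a share below the background. The median over all 26 was -0.10. None of the 26 rose by edgeR's test at 20 mM. At an unadjusted p under 0.05 in that test 1 was higher, and DESeq2 called 1 higher and limma 0. The 3 risers without KRAB at 40 mM were ZNF121, ZNF260 and ZNF329, which have 9, 13 and 12 fingers. In the 40 mM libraries the median of the members without KRAB was -0.113, -0.140 and 0.033, so that replicate 3 did not share the lower level; without it, 3 rose and 10 fell with a median of -0.15, and 39 KRAB members rose and 19 fell. With libraries scaled by their totals, 3 of them rose and 3 fell, and 44 KRAB members rose and 16 fell. The 2 sets also differed in make-up, with a median transcript GC content of 42.3% against 61.6%, 12.5 against 8 fingers and 2.13 against 3.43 FPKM. They differed in position too, since most of the 11 members at 55.5 to 56.7 Mb in cluster G carry no KRAB domain. The part of these differences was not tested.

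The members were also split by their number of fingers. Of 71 members with more than 12 fingers, 25 rose (35.2%) and 7 fell (9.86%) at 40 mM, beside 28.8% and 27.4% of all tested genes, with a median of 0.08. With libraries scaled by their totals 28 rose and 4 fell, and without replicate 3 of 40 mM 23 rose and 7 fell. Of 70 with 7 to 12 fingers, 11 rose (15.7%) and 17 fell (24.3%), with a median of -0.02 (14 and 12 with libraries scaled by their totals), and of 17 with 6 or fewer, 3 rose and 5 fell, with a median of -0.05. Across the 158 members the Spearman coefficient with finger number was 0.18 at 20 mM and 0.25 at 40 mM, and with transcript GC content -0.28 and -0.19. All points share the same 9 libraries, and finger number and GC content are features of the same transcripts, so these are descriptions.

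**Figure D4:**
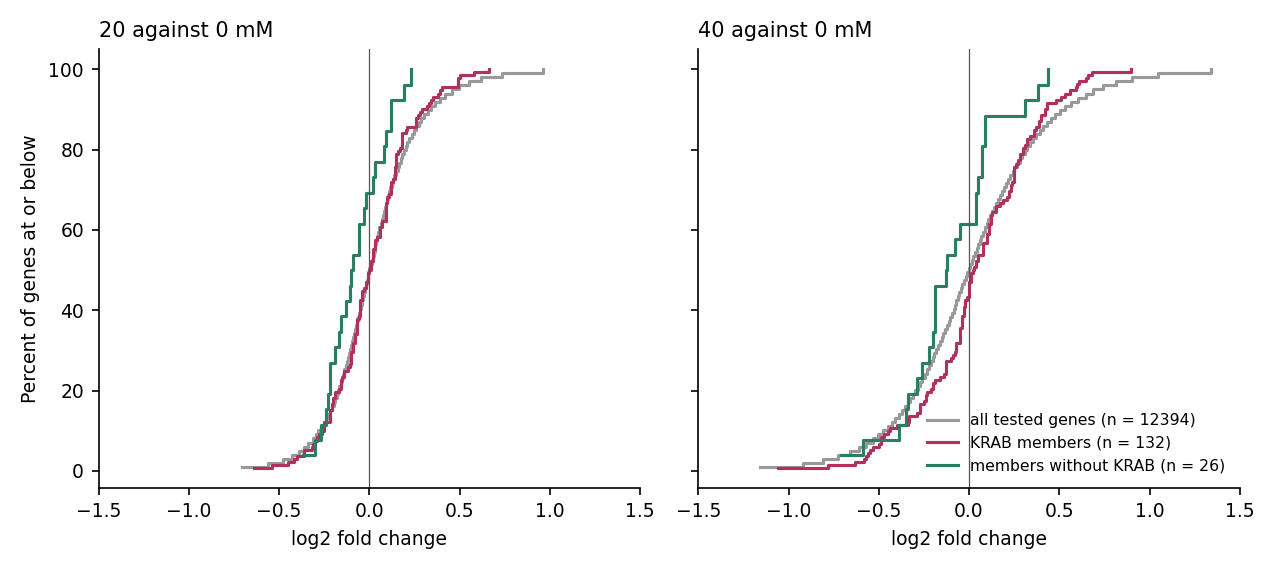
Percent of genes (y axis) at or below each log2 fold change (x axis) at 20 (left) and 40 mM (right) against 0 mM, for 132 members with and 26 without a KRAB domain and for the 12394 tested genes, drawn from their percentiles. At 40 mM the curve of members without KRAB lies left of the others near 0 (median -0.13) and the KRAB curve runs close to that of all genes (median 0.02).

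Shared sequence limits what counts can say of single members. In 45 members at least 10% of the 50-base windows of the transcripts also occur in transcripts of other genes, and in 5 at least 50%, with ZNF320 at 99.48%. The 113 members under 10% gave 27 rises (23.9%) and 26 falls (23.0%) at 40 mM. The 45 at 10% or more gave 12 (26.7%) and 3 (6.67%), and the medians were 0.00 and 0.03. Over all tested genes 28.8% were higher and 27.4% lower, so the sets differed more in falls than in rises. A further limit is that 104 members overlap another listed gene, 56 on the same strand and 75 on the opposite strand; the libraries were made strand-specific, but how strand was used in counting is not stated in the labels. The 54 members that overlap none gave 13 rises and 13 falls at 40 mM, 24.1% each.

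The machinery through which KRAB proteins act was measured with a list of 32 genes, all of them tested. At 20 against 0 mM 1 of them rose (3.12%) and 16 fell (50.0%), with a median of -0.15. The background was 16.3% of tested genes higher and 15.2% lower. At 40 mM 2 rose (6.25%) and 19 fell (59.4%), with a median of -0.22, beside 28.8% higher and 27.4% lower. The corepressor TRIM28 itself fell with dose. TRIM28 measured 137, 142 and 136 FPKM without drug, 104, 98.1 and 96.1 at 20 mM and 78.1, 75.4 and 71.1 at 40 mM, with no overlap between doses. It fell by 0.48 ± 0.05 at 20 mM and 0.92 ± 0.05 at 40 mM (adjusted p = 3.3e-05 and 1.2e-07), and by 0.44 ± 0.05 between the doses (adjusted p = 0.00015). The gene lies at chr19:58544064-58550715, beyond ZNF446, the last member of cluster G, and its level was far above that of any member.

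Most other called changes in the machinery at 40 mM were falls too, and the 2 rises were ATF7IP and HDAC1. There 11 of the 32 genes were not called. SETDB1, the methyltransferase that TRIM28 recruits, stood at 9.74 ± 0.0688, 9.78 ± 0.197 and 10.2 ± 0.164 FPKM and was not called (0.00 ± 0.04 and 0.04 ± 0.04, adjusted p = 0.94 and 0.41). Its cofactor ATF7IP rose, from 5.29 ± 0.328 to 6.39 ± 0.0567 and 8.07 ± 0.533 FPKM, by 0.27 ± 0.06 and 0.57 ± 0.06 (adjusted p = 0.0049 and 1.1e-05). CBX5, which codes for heterochromatin protein 1 alpha, fell by 0.55 ± 0.07 and 0.81 ± 0.07 (adjusted p = 0.00017 and 3.1e-06). TASOR of the HUSH silencing complex fell from 12.6, 12.9 and 13.6 FPKM to 10.6, 10.6 and 10.7 and then 8.37, 9.19 and 8.95, by 0.30 ± 0.04 and 0.60 ± 0.04. MBD3 of the NuRD complex fell by 0.46 ± 0.05 and 0.54 ± 0.05, and UHRF1, which guides maintenance DNA methylation, by 0.36 ± 0.06 and 0.61 ± 0.06. The deacetylase HDAC1 rose at 40 mM by 0.19 ± 0.05 (adjusted p = 0.007). Without replicate 3 of 40 mM, 2 of the list rose and 22 fell at that dose.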

How the data were processed

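The 9 libraries are strand-specific libraries of polyadenylated RNA sequenced from both ends, per the labels' protocols. The authors deposited 1 table with read counts and FPKM for each gene, per the file headers. Those FPKM are the deposited values, per the file headers, and were not rescaled. The submitters' processing notes list StringTie 2.1.6, with no role. Not given in the sources used here: aligner, build and annotation. All 158 members overlap their namesake in GENCODE release 29, and 70 match it in both ends.

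The 12394 genes averaging 1 FPKM or more were tested with edgeR 4.0.16 (R 4.3.3; TMM scaling, glmQLFit, glmQLFTest) on the counts, all 9 libraries in 1 fit. The SE is the change over the square root of F. Alternatives used DESeq2 1.42.0, limma 3.58.1 on log2(FPKM + 1), other scalings and filters, a replicate block and each library left out. The code was first tested on simulated data. With 3 libraries per dose, the spread between libraries sets the precision.

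The members and lists were chosen with earlier results of these data known. The list of genes to name held the largest called rises and falls of each comparison without overlap between libraries, and the highest levels. It also held the smallest p and the highest level in each cluster, 18 genes with known roles and leading genes of the machinery list. ZNF738 and ZNF791, highest in clusters C and B, are on it but have no values above. The alternatives for the KRAB split and the machinery list were added after the data were seen. The KRAB split was planned on RefSeq proteins; coding sequences of GENCODE release 29 were translated instead and searched with a profile of 40 residues (pyhmmer 0.12.3, E-value under 1e-05).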

Additional observations from a re-analysis of the deposited data

How the results depend on the processing

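For the 158 members, an adjusted p under 0.01 left 10 rises and 4 falls at 20 against 0 mM, 21 and 17 at 40 against 0 mM and 2 and 1 at 40 against 20 mM. With no filter there were 7 falls at 20 mM, and 3 rises and 6 falls between the doses. A filter at 2 FPKM left 15 falls at 40 against 0 mM and 6 between the doses. Scaling by library totals gave 19 and 6 falls there, with medians of 0.06 and 0.06. Limma gave 4 falls between the doses with either pseudocount, and with 0.1 a median of 0.04 at 40 against 0 mM. Fitting only the 6 libraries compared gave 8 rises and 5 falls between the doses.

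With 1 library left out, falls at 20 mM ranged from 8 to 20, with a median of -0.03 to 0.01, and rises at 40 against 0 mM from 25 to 42. The lowest of each came without replicate 1 of 0 mM (or replicate 2 or 3 of 20 mM) and without replicate 2 of 0 mM. Between the doses rises ranged from 5 to 18 and falls from 3 to 14. The 5 rises came without replicate 2 or 3 of 20 mM or replicate 1 of 40 mM.

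For clusters, library totals moved the medians at 40 against 0 mM to 0.02 in A, 0.07 in C, 0.30 in D, 0.10 in E and 0.02 in G, and that of G between the doses to 0.06. Gaps of 2 Mb put F and G in a single run of 65 members at 48.3 to 58.5 Mb. Its medians were -0.05 at 20 mM, 0.00 at 40 against 0 mM and 0.06 between the doses. The run that then held E, 21 members at 40.0 to 45.1 Mb, gave 0.07 between the doses. Gaps of 0.5 Mb split G: its larger run of 32 members gave 0.01 and 0.01 at the 2 doses, and its other 11 gave -0.22 and -0.22. With 1 library left out the medians ranged in A from -0.14 to -0.06 at 20 mM, from -0.08 to -0.02 at 40 against 0 mM and from -0.01 to 0.07 between the doses. They ranged in C from 0.07 to 0.16 at 20 mM and from -0.03 to 0.03 at 40 mM, and in D from 0.18 to 0.28 at 40 mM. In F they ranged from 0.08 to 0.25 at 40 against 0 mM and from 0.08 to 0.22 between the doses, and in G from -0.11 to -0.05 at 20 mM and from -0.07 to -0.01 at 40 mM.

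For KRAB members, an adjusted p under 0.01 left 10 rises and 3 falls at 20 mM and 18 and 13 at 40 mM. No filter gave 6 falls at 20 mM. A filter at 2 FPKM gave 11 falls and a median of 0.09 at 40 mM, and library totals a median of 0.08. With 1 library left out, falls at 20 mM ranged from 6 to 17, rises at 40 mM from 22 to 39 and the median at 40 mM from 0.00 to 0.07. For members without KRAB, an adjusted p under 0.01 or no filter left 1 fall at 20 mM, and 4 falls at 40 mM under either. At 40 mM there were 4 falls with a filter at 2 FPKM and 3 with library totals. At 20 mM 1 rise was called with a filter at 2 FPKM, library totals, DESeq2, the replicate block or only the 6 libraries compared. With 1 library left out, falls ranged from 1 to 3 at 20 mM and from 4 to 10 at 40 mM, and rises at 20 mM from 0 to 1. For the machinery list at 40 mM, library totals gave 5 rises and a median of -0.16, limma medians of -0.16 and -0.18, and left-out libraries 2 to 4 rises and medians of -0.22 to -0.19.

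Same-number correlations of deviations between libraries ran from -0.10 to 0.19, and 3 of 9 exceeded 0.1. The 18 different-number correlations ran from -0.19 to 0.12. So few correlations with overlapping ranges cannot tell whether replicate numbers pair the libraries. With the replicate block, 19 members rose and 17 fell at 20 mM, 39 and 31 at 40 mM, and 15 and 10 between the doses. Of all tested genes the block called 34.3%, 58.2% and 32.1%, beside 31.6%, 56.2% and 29.3% without it. The calls of genes on the naming list are not all printed above. Of these calls, 19 of 29 at 20 mM, 31 of 42 at 40 mM and 9 of 21 between the doses held without each library in turn. The sign of ZNF44 (-0.15 to 0.03) and of ZNF581 (-0.14 to 0.03), neither called, turned at 40 mM with 1 library left out. The cause of these moves was not tested. The lowest count of a member in any library was 115, in ZNF524, whose SE of 0.19 was among the larger ones.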
